A study of Mus musculus with 2 samples.

Results

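Ephrins and semaphorins are the ligands, and Eph receptors, plexins and neuropilins the receptors, of 2 large families of guidance signals. The genes were chosen by symbol, as every protein-coding gene of the GENCODE M21 annotation named as an A or B ephrin, an EphA or EphB receptor, a semaphorin of classes 3 to 7, a plexin of classes A to D, or neuropilin 1 or 2. This gave 53 of 21938 genes, of which 28 were ligands (8 ephrins and 20 semaphorins) and 25 were receptors (14 Eph receptors, 9 plexins and 2 neuropilins). The rule itself uses no measured value, though it was set with earlier results of these data known.

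Ephrins are held on the cell surface, the A class by a lipid anchor and the B class by a membrane-spanning segment, and bind Eph receptor tyrosine kinases on a touching cell, so that signals can pass into both cells. Semaphorins are secreted (class 3) or bound to the membrane and act through plexins, whose inner part acts on small GTPases, while neuropilins help class 3 semaphorins bind and also bind VEGF. Best known from axon guidance, both families also shape vessels and sort epithelial cells, and in mice B-class ephrins and their Eph receptors take part in closing the urethra and in dividing the cloaca, from which the bladder forms.

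DNase-seq, which maps open chromatin from the fragments that DNase I frees from nuclei, was done on bladders of female B6CASTF1/J mice aged 4 days. These animals are F1 hybrids of C57BL/6J and CAST/EiJ, and the reference sequence is that of C57BL/6J. There was a single group of 2 biological replicates with 1 library each, taken from females with different numbers under one donor identifier, so the spread between them may be partly technical. No contrast between groups exists and genes are not replicates, so the values below are descriptions without a test.

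The looser of the deposited peak lists, used unless stated, held 96518 peaks in replicate 1 and 122870 in replicate 2, and the stricter list held 61623 and 77545. A peak's height is the signal given by the authors, and all heights came in whole steps, of 0.00466 in replicate 1 and 0.00417 in replicate 2. Bladder was the whole tissue, so fewer open cells of a type and less openness per cell cannot be told apart. Of genes fixed as markers, a promoter peak in both replicates was found at 8 of 9 for smooth muscle and 8 of 9 for fibroblasts and mesenchyme, against 62.3% of all genes. The same held for 4 of 10 for urothelium, 6 of 9 for endothelium, 2 of 9 for immune cells, 3 of 9 for peripheral glia and neurons and 3 of 5 for mesothelium. On the stricter list, where 55% of all genes were open, the counts were 6, 7, 1, 5, 1, 2 and 3 in that order, so urothelial markers had 1 of 10. Which of these cells any peak came from was not tested.

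The sequences behind the strongest and the absent signals are shown first, from assembly mm10 (GRCm38), 5′ to 3′, with capitals on bases that lay inside a footprint, a short protected stretch called by the authors, in both replicates. The promoters of Ephb3, Epha7 and Efnb2 held the tallest peaks found at the 5′ end of a gene of these families, and each line gives the 200 bases before that end. They stand at chr16:21204555-21204754 on the plus strand, chr4:28812931-28813130 on the plus strand and chr8:8661243-8661442 on the minus strand, in that order.
Ephb3 promoter: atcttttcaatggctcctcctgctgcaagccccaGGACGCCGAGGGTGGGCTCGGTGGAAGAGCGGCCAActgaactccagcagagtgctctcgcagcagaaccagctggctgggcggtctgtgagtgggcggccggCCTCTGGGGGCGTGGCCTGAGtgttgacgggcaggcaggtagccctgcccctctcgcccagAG
Epha7 promoter: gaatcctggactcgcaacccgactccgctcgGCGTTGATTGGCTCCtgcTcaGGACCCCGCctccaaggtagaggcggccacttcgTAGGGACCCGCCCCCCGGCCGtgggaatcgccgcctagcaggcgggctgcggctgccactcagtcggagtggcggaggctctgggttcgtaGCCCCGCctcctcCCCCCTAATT
Efnb2 promoter: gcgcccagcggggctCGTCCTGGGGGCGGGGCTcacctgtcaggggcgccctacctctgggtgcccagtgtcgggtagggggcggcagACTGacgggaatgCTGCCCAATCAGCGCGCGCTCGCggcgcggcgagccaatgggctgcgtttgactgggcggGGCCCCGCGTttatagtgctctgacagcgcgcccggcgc
The promoters of Efna2, Epha8 and Epha10 had no peak in either replicate, and are shown for contrast. They stand at chr10:80179282-80179481 on the plus strand, chr4:136956817-136957016 on the minus strand and chr4:124880699-124880898 on the plus strand.
Efna2 promoter: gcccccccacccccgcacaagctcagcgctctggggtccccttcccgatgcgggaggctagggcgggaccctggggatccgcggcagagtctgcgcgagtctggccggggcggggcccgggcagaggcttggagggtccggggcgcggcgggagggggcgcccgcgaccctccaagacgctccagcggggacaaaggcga
Epha8 promoter: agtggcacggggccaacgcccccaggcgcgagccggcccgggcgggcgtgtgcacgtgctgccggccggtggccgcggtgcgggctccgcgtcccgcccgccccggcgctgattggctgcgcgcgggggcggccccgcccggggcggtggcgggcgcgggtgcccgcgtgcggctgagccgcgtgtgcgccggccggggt
Epha10 promoter: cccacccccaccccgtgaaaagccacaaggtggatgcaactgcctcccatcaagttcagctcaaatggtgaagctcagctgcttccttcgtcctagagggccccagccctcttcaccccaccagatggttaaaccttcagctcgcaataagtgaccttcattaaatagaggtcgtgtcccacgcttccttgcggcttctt
GC content did not separate these sets, being 67.0%, 69.0% and 73.5% in the windows of Ephb3, Epha7 and Efnb2 and 77.0%, 85.5% and 54.5% in those of Efna2, Epha8 and Epha10. CpG dinucleotides numbered 11, 19 and 24 in the open windows and 22, 38 and 6 in the closed ones.

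Away from promoters, the tallest regions next to these genes that touched no exon were at Sema5a, Sema4a, Sema3f, Sema6c, Plxnd1 and Efna1, all read on the plus strand. Their positions were chr15:32246081-32246280, chr3:88467241-88467400, chr9:107701741-107701940, chr3:95174321-95174480, chr6:116010621-116010840 and chr3:89282061-89282240, in that order.
Sema5a region: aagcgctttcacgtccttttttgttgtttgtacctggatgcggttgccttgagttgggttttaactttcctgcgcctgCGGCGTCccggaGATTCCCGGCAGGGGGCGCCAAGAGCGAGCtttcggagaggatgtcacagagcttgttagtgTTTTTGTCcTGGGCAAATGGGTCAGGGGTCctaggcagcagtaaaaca
Sema4a region: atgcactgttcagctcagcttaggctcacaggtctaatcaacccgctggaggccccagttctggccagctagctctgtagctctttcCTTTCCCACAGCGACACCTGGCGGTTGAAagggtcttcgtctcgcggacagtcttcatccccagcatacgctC
Sema3f region: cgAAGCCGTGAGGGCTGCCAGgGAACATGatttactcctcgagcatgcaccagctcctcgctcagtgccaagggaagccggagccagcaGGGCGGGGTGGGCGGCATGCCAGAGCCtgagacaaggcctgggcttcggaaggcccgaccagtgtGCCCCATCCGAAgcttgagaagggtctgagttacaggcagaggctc
Sema6c region: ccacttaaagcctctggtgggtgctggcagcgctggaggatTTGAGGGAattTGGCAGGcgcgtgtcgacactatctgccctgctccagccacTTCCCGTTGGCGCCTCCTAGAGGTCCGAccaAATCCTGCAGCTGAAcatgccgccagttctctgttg
Plxnd1 region: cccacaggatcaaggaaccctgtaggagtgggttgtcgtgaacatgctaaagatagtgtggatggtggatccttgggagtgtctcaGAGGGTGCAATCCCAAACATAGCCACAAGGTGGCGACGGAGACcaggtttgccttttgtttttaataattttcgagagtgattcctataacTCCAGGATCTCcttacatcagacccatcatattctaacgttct
Efna1 region: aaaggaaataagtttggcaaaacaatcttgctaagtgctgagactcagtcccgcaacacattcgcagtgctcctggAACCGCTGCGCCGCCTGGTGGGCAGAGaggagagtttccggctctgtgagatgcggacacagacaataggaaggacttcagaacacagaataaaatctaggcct
A loose core of the CTCF motif (CC, 3 free bases, AG, 2 free bases, GGC) was looked for on both strands after these sequences had been seen. It matched within capitals in the regions of Sema5a (bases 96 to 107, counted from the left), Sema6c (105 to 116), Plxnd1 (109 to 120) and Efna1 (86 to 97). In windows of 200 bases this core was found at 25.5% of all distal regions and at 21.3% of those of the guidance genes. The region of Sema3f held instead 2 GC boxes (GGGCGG, bound by Sp factors) within capitals, at bases 90 to 95 and 99 to 104.

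A promoter was called open where a peak reached within 500 bp of an annotated transcription start site (TSS) of the gene. It was open in both replicates at 47 of the 53 guidance genes (88.7%), against 62.3% of all protein-coding genes. Counted by itself, replicate 1 had 49 open (92.5%) against 65.4% of all genes, and replicate 2 had 48 (90.6%) against 64.7%. Both counts include the 47 genes open in both replicates. The stricter list left 40 genes open in both replicates (75.5%) against 55% of all genes. Where a promoter was open, its tallest peak did not reach the window of another protein-coding gene in either replicate.

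Ligands and receptors had open promoters about equally often, 25 of 28 ligands (89.3%) and 22 of 25 receptors (88.0%). The difference of 1.29 percentage points was smaller than the spread between replicates, where it was 8.43 points in replicate 1 and -2.71 points in replicate 2 (SD 7.88, n = 2). It was -1 point on the stricter list, with 21 ligands and 19 receptors open, and so changed sign. By family, 6 of 8 ephrins, 19 of 20 semaphorins, 12 of 14 Eph receptors, 8 of 9 plexins and 2 of 2 neuropilins were open. Every closed or partly open gene was an A ephrin (Efna2, Efna4), an EphA receptor (Epha8, Epha10), Sema4g or Plxnb3. The B ephrins (3 of 3), EphB receptors (5 of 5) and class 3 semaphorins (7 of 7) were all open, with 2, 5 and 7 open on the stricter list. Among others, class 6 semaphorins (4 of 4) and class A plexins (4 of 4) were also all open, with 3 each on the stricter list. These small counts stand beside 88.7% of all guidance genes and 62.3% of all genes. Efna2, Efna4 and Epha8 had 1 annotated TSS each, as had Efnb3 and Sema3g, which were open. Epha10 and Plxnb3 had 3, Sema4g had 7 and the EphB genes had 3 to 6. Of all genes with 1 TSS, 30.8% were open. Whether class or the number of TSSs set these counts was not tested.

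**Figure D1:**
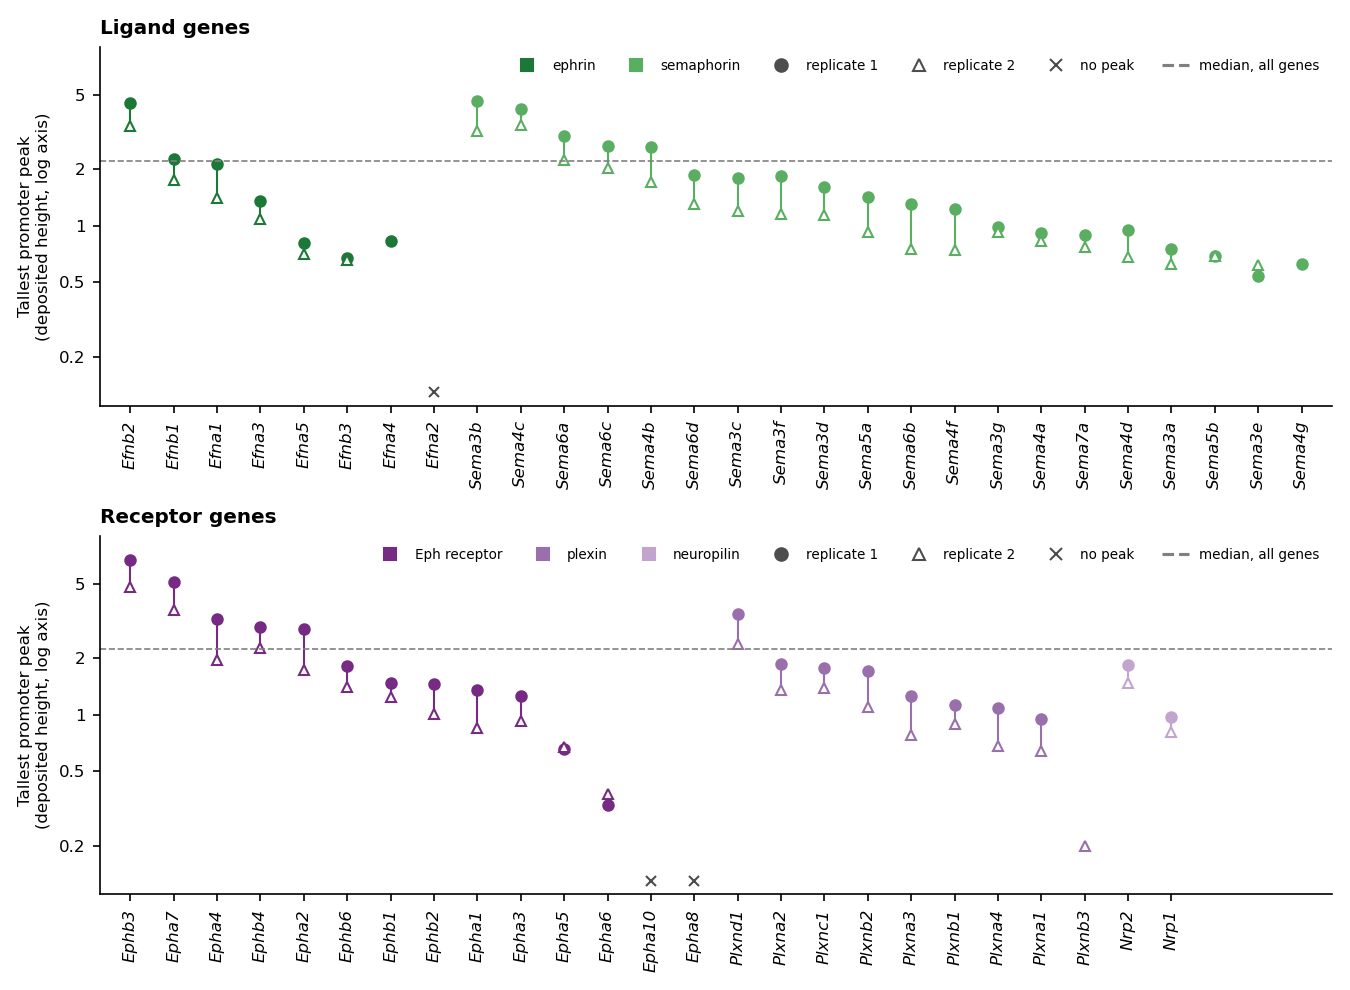
Height of the tallest promoter peak (deposited signal, log axis) of each gene in replicate 1 and replicate 2, with ligands above receptors. Lines join the 2 replicates of genes open in both and are not intervals, and crosses mark genes with no peak. The dashed line is the median of all open promoters, 2.23. Ephb3 stood highest at 6.65 and 4.78, and 11 of the 47 genes open in both replicates had a mean above that line.

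Among ephrins, the B class was led by Efnb2, the transmembrane ligand that marks arteries, whose promoter peak was 4.52 high in replicate 1 and 3.41 in replicate 2 (mean 3.96 ± 0.788, SD, n = 2). Efnb1, an X-linked ligand of EphB receptors, had 2.26 and 1.75. Efnb3, best known from the nervous system, had 0.671 and 0.655 and had no promoter peak on the stricter list in either replicate. The 3 B ephrins thus covered a range from low to among the tallest of these families.

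In the A class, Efna1, a ligand of Epha2 in epithelia and vessels, was highest at 2.14 and 1.41. Efna3, its neighbour on chromosome 3, had 1.35 and 1.09. Efna5, a ligand of several EphA receptors in the brain, had 0.810 and 0.705. Efna4, the third ephrin gene of that stretch of chromosome 3, had a peak of 0.833 in replicate 1 (exact Poisson 95% interval 0.716 to 0.965, counting error only), whereas the nearest peak in replicate 2 ended 1.45 kb from its TSS. Efna2 had no promoter peak and no listed stretch below the deposited rate of 0.05, and its nearest peak lay 6.30 kb away in replicate 1 and 6.20 kb away in replicate 2.

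The semaphorins showed the same spread. Sema3b, a secreted semaphorin, had the tallest peak of that family at 4.66 and 3.23 (mean 3.94 ± 1.01), and Sema4c, a transmembrane ligand of Plxnb2, had 4.23 and 3.47 (3.85 ± 0.534). Neither peak was at the 5′ end of the gene, lying 7.01 kb and 1.09 kb inside Sema3b and Sema4c in replicate 1. Of class 6, whose members cross the membrane, Sema6a had 3.03 and 2.25 (2.64 ± 0.551). Sema6c had 2.65 and 2.05. Sema6d, a ligand of Plxna1, had 1.88 and 1.30, and Sema6b had 1.31 and 0.75. All 4 were open in both replicates.

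Of the other class 3 semaphorins, which are secreted, Sema3c (known from the heart's outflow tract) had 1.81 and 1.20. Sema3f, which acts through Nrp2, had 1.85 and 1.15. Sema3d had 1.61 and 1.15. These 3 lay near the middle of the family, while the others were lower. Sema3g had 0.982 and 0.934. Sema3a, the classical repellent of axons that acts through Nrp1, had 0.754 and 0.630. Sema3e, the ligand of Plxnd1, was lowest of the class at 0.540 and 0.617.

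Class 4, made of transmembrane proteins, was led after Sema4c by Sema4b with 2.62 and 1.72. Sema4f had 1.22 and 0.746. Sema4d, the ligand of Plxnb1, had 0.950 at a start site 45.5 kb inside the gene in replicate 1 and 0.680 at its 5′ end in replicate 2. Sema4a, like Sema4d known from immune cells, had 0.913 and 0.834. Sema4g had a peak of 0.624 in replicate 1 (interval 0.523 to 0.739), and in replicate 2 the nearest peak was 14.2 kb away. Sema5a, a class 5 protein with thrombospondin repeats and a ligand of Plxnb3, had 1.43 and 0.926. Its relative Sema5b had 0.689 and 0.692. Sema7a, the lipid-anchored ligand of Plxnc1, had 0.894 and 0.771, with the peak of replicate 1 alone on the stricter list.

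On the receptor side, Ephb3, a kinase that places epithelial cells along intestinal crypts, had the tallest promoter peak of all 53 genes, 6.65 in replicate 1 and 4.78 in replicate 2 (mean 5.72 ± 1.33, SD, n = 2). This was taller than 95.9% of the open promoters of all genes. Ephb4, the venous receptor of ephrin-B2, had 2.93 and 2.28. Ephb6, which lacks kinase activity, had 1.83 and 1.40. Ephb1 had 1.48 and 1.24, and Ephb2, a partner of ephrin-B2 in closing the urethra of mice, had 1.46 and 1.01. The 5 EphB genes were also open on the stricter list in both replicates.

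The open EphA receptors ran from a mean of 0.355 to 4.37, against 1.24 to 5.72 for EphB. Epha7 had 5.11 and 3.63 (4.37 ± 1.05), taller than 86.0% of open promoters, and Epha4, which binds ephrins of both classes, had 3.25 and 1.96 (2.61 ± 0.913). Epha2, the epithelial receptor of ephrin-A1, had 2.85 and 1.74. Below these, Epha1 had 1.35 and 0.851 and Epha3 had 1.25 and 0.926. Epha5 had 0.657 and 0.671, and Epha6 had 0.331 and 0.379, the lowest of the open genes and the only one with no footprint in its tallest peak. On the stricter list Epha1 had a peak in replicate 1 alone and Epha6 in replicate 2 alone. Epha8 and Epha10 (the second lacks kinase activity) had no promoter peak, and the nearest peak to Epha8 lay 14.3 kb away in both replicates and that to Epha10 1.5 kb away in replicate 1 and 1.55 kb away in replicate 2.

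Among the plexins, Plxnd1, the vascular receptor of Sema3e, had the tallest peak at 3.44 and 2.39 (2.91 ± 0.741). Plxna2 had 1.86 and 1.36, and Plxnc1, the receptor of Sema7a, had 1.76 and 1.38. Plxnb2 had 1.70 and 1.10 and Plxnb1, the receptor of Sema4d, had 1.13 and 0.892. The rest of class A, which joins neuropilins in binding class 3 semaphorins, was lower than Plxna2. Plxna3 had 1.25 and 0.780, Plxna4 had 1.09 and 0.684, and Plxna1 had 0.950 and 0.638, from peaks that did not overlap each other. Plxnb3 had a peak in replicate 2 alone, 0.2 high (interval 0.148 to 0.265), by a start site inside the gene and 8180.5 bp from its 5′ end. The nearest peak in replicate 1 was at 21.3 kb. Of the neuropilins, Nrp2 had 1.85 and 1.47 and Nrp1 had 0.973 and 0.805.

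The ligand and receptor pairs named above, picked after their values were seen, went both ways. The ligand had the taller peak in both replicates for Efnb2 with Ephb4 and with Ephb2, Sema4c with Plxnb2 and Sema6d with Plxna1, and Sema5a was open in both replicates where Plxnb3 was open in replicate 2 alone. The ligand had the lower peak in both replicates for Efna1 with Epha2, Sema3e with Plxnd1, Sema4d with Plxnb1, Sema7a with Plxnc1 and Sema3a with Nrp1. Sema3f and Nrp2 both had 1.85 in replicate 1, and Sema3f was lower in replicate 2. For Sema4d with Plxnb1 and Sema3a with Nrp1 the counting intervals overlapped in both replicates. Heights are not levels of RNA or protein.

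Open promoters of these genes were lower than usual, with a median height of 1.36 over the 47 genes against 2.23 over all open promoters. Medians were 1.22 for ligands and 1.38 for receptors, and by replicate 1.43 for ligands and 1.59 for receptors in replicate 1 and 1.09 and 1.17 in replicate 2. The ligand and receptor medians differed by less than the replicates did. A mean height above the all-gene median was reached by 11 of 47 genes (5 ligands and 6 receptors), where the background is 50% by construction. A footprint lay in the tallest promoter peak of both replicates at 46 of the 47 genes (97.9%), against 95.8% of all open promoters.

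The promoters were GC-rich, with a median of 62.3% (61.8% for ligands and 63.2% for receptors) against 54.7% for all genes. In the upper 2 quintiles of all genes by promoter GC lay 41 of the 53 genes, and 37 of those were open (90.2%), beside 90.8% of all genes in these quintiles. Height differed there, with a median of 1.36 for the guidance genes against 2.54 for all. The genes also had more start sites, with a median of 5 annotated TSSs against 3. Open in both replicates were 2 of 5 genes with 1 TSS (all genes 30.8%), 13 of 15 with 2 or 3 (50.5%), 17 of 17 with 4 to 6 (79.8%) and 15 of 16 with more (92.8%). The part of GC content and of the number of TSSs in the count of open genes was not tested further.

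**Figure D2:**
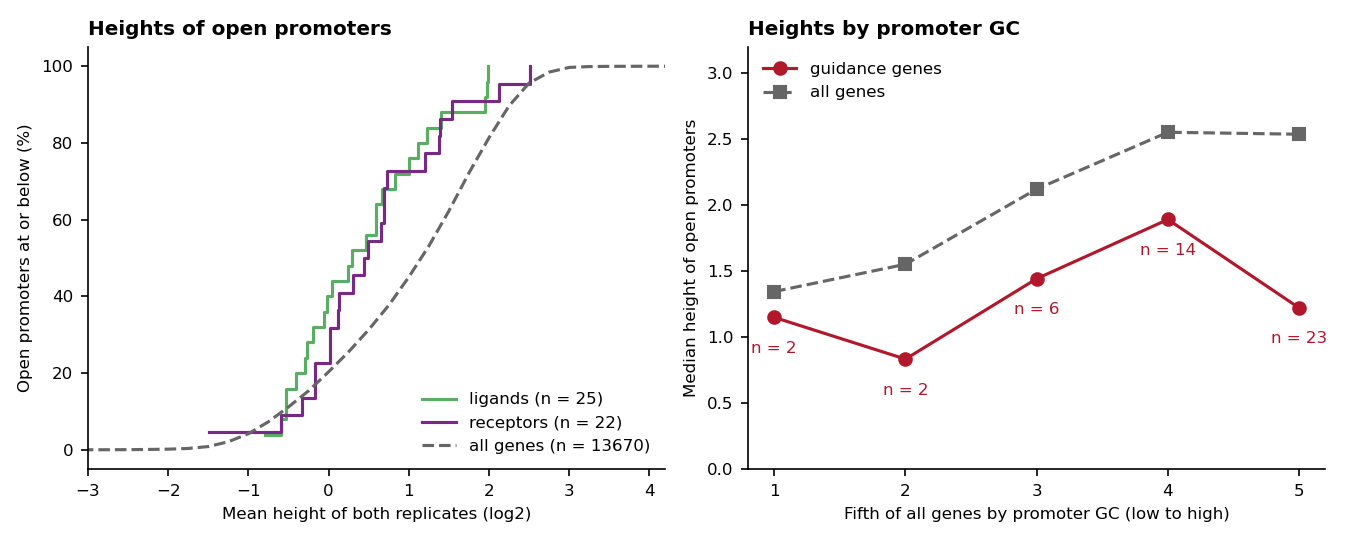
Left, the share of open promoters (percent, vertical axis) at or below a mean height (log2 of the deposited signal) for ligands, receptors and all genes; right, the median height of open promoters for the guidance genes and all genes by quintile of promoter GC, with the number of open guidance genes printed at each point. The curves of ligands and receptors lie close together, left of that of all genes over most of the range, and in the richest quintile the median was 1.22 for the guidance genes and 2.54 for all genes.

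In 9 of the 47 genes (19.1%) the tallest promoter peak lay over 1000 bp from the 5′ end of the gene in both replicates, at the start of a shorter transcript, against 10.8% of all open genes. These were 7 of 25 ligands (28.0%) and 2 of 22 receptors (9.09%). Beside Sema3b and Sema4c they were Efna1, Sema4a, Sema4f, Sema3a, Sema6d, Plxna2 and Plxnc1. More annotated TSSs give more places for such a peak. Their median number was 5 for the guidance genes and 3 for all genes. It was 4 for ligands, with 7 for semaphorins and 2 for ephrins, and 5 for receptors. The part of TSS number in these shares was not tested. In Sema6d the peak was 521 kb inside the gene, in Sema3a 274 kb and in Plxnc1 115 kb. With the 5′ end alone as promoter, 22 of 28 ligands (78.6%) and 21 of 25 receptors (84.0%) were open, or 43 of 53 genes (81.1%) against 56.5% of all genes.

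Heights were lower in replicate 2 at 43 of 47 genes (23 of 25 ligands and 20 of 22 receptors), against 93.1% of all open promoters. The log2 ratio of replicate 2 over replicate 1 had a median of -0.41 over all open promoters (SD 0.27). Relative to that, the guidance genes had a median of -0.03 (SD 0.24), with 0.00 for ligands and -0.05 for receptors. The genes farthest up were Epha6 (0.61), Sema3e (0.60) and Epha5 (0.44), all with low peaks. Farthest down were Sema6b (-0.40), Epha4 (-0.32) and Epha2 (-0.30). The tallest peaks of the replicates did not overlap each other at 3 of the 47 genes (6.38%, all open promoters 4.76%), which were Epha6, Plxna1 and Sema4d, so their ratios compare different peaks and that of Epha6 is no change of 1 peak. Over the 44 genes whose tallest peaks overlapped, the median was -0.02 (SD 0.23).

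Distal regions were those found in both replicates with a centre over 1000 bp from any TSS, each given to the protein-coding gene with the nearest TSS, up to 100 kb away. The guidance genes had 141 of 25836 such regions, a mean of 2.66 per gene (median 2) against 1.18 (median 0) for all genes. At least 1 was found at 39 of the 53 genes, 21 ligands and 18 receptors, against 43.7% of all genes. Ligands had 66 regions (mean 2.36, median 2) and receptors 75 (mean 3, median 1). The space nearest to the gene differed in the same order, with a median of 54.2 kb for ligands, 200.4 kb for receptors and 45 kb for all genes. Per 100 kb of that space, summed over the genes of each group, the counts were 1.71 for ligands, 1.78 for receptors and 1.54 for all genes. These counts rest on the sums, so the medians are not the space they were divided by.

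The most shared distal regions were given to Plxna1, with 10, of which 4 formed a patch of 2.24 kb with mean heights of 0.162 to 0.305 and 6 lay outside it. That patch was 82.7 to 84.3 kb from the nearest start site of Plxna1. A start site of a gene that is not protein-coding was nearer to it, at 11201 to 12822 bp. Ephb3 and Nrp2 had 9 each. All 9 regions of Ephb3 were likewise nearer to a start site of a gene that is not protein-coding, at 1752 to 14270 bp. That also held for some regions of Nrp2 and Plxnc1. Ephb2 and Sema6a had 8 each, and Efna5, Plxnc1 and Sema4b had 7 each. None was found by 7 ligands and 7 receptors, among them Sema3b and Sema4c with their tall promoter peaks. Of the 141 regions, 61 had their centre in an intron of the gene itself (43.3%, all genes 36.0%). The centre lay outside exons and between protein-coding genes for 62 (44.0%, all genes 50.1%). It lay in an exon of a gene of any type for 17 (12.1%, all genes 9.34%).

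**Figure D3:**
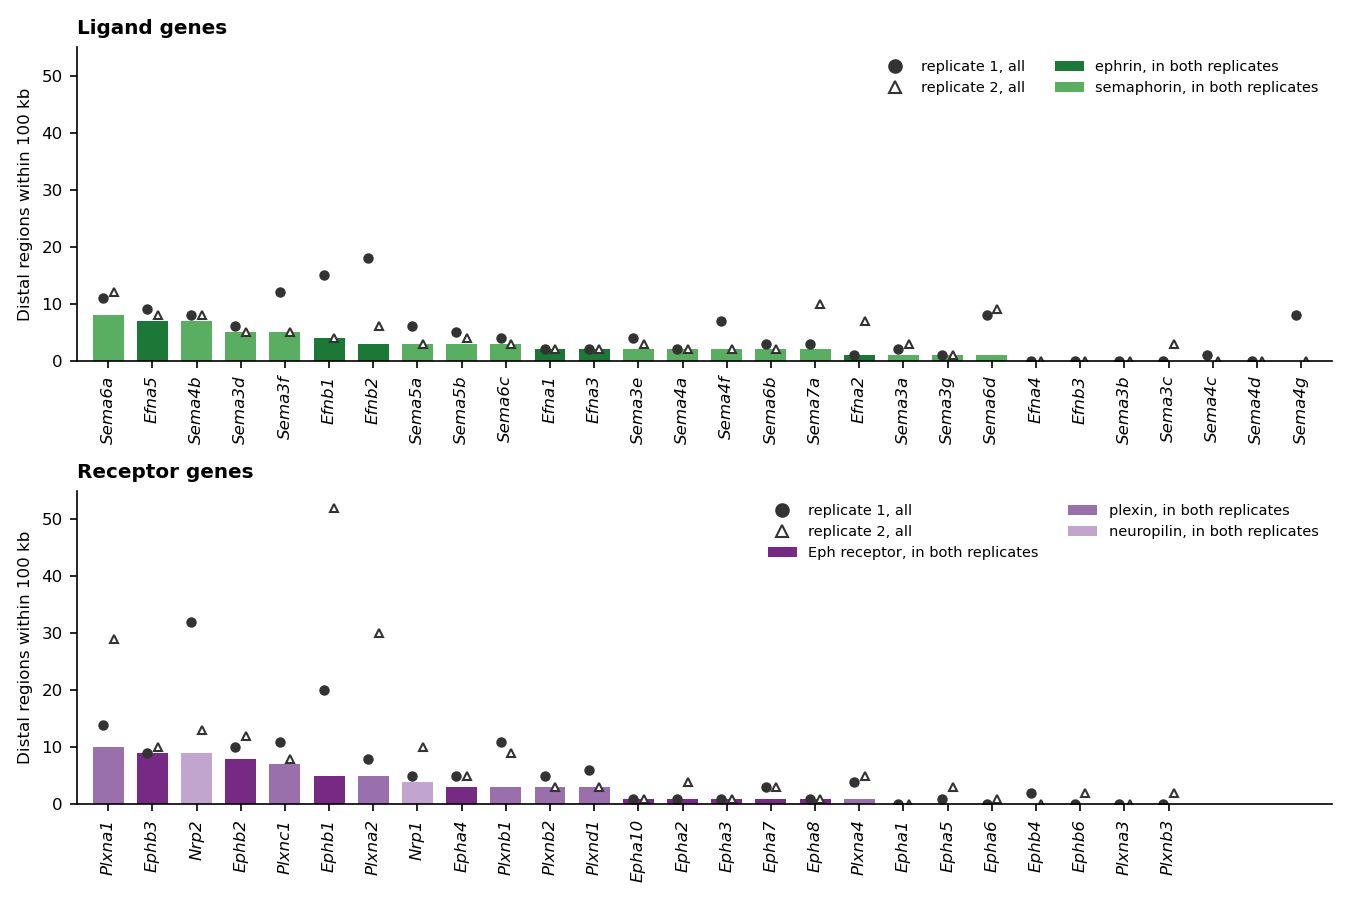
Number of distal regions per gene, with ligands above receptors; bars count regions found in both replicates, dots those with a peak in replicate 1 and triangles those with a peak in replicate 2. Plxna1 had the tallest bar, 10, while Ephb1 had 52 regions in replicate 2 and 20 in replicate 1 of which 5 were shared.

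Distal regions were lower than promoters, with a median height of 0.778 over the 141 regions (0.784 for ligands and 0.767 for receptors) against 0.67 for all genes. The tallest by the mean of both replicates lay by Epha4, 4.28 high in replicate 1 and 2.26 in replicate 2, at 1.35 kb before the nearest start site of the gene and over an annotated exon. That of Sema5a had 3.73 and 2.48, at 1.08 kb beyond a start site. That of Sema4a had 3.31 and 2.74, at 6.14 kb before the gene. Each of these regions was taller in both replicates than the tallest promoter peak of its gene.

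The Sema3f region had 2.95 and 2.56, at 3.73 kb beyond a start site, and in Ephb2 a region over an exon had 2.75 and 1.94. Both were also taller than the promoter peak of their gene. By Sema6c the heights were 2.62 and 1.93, at 3.6 kb beyond its nearest start site and past the end of the gene. Those of Plxnd1, 15.7 kb before the gene, and of Efna1, 1.01 kb before it, had 2.93 and 1.45 and 2.71 and 1.51. Of these 8 regions, 5 were nearest to a ligand gene and 3 to a receptor gene. The regions of Epha4, Sema5a and Efna1 lay just beyond the limit of 1000 bp that sets distal apart from promoter, and regions of Efna5 (97.0 kb) and Ephb3 (99.7 kb) lay just within the limit of 100 kb.

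**Figure D4:**
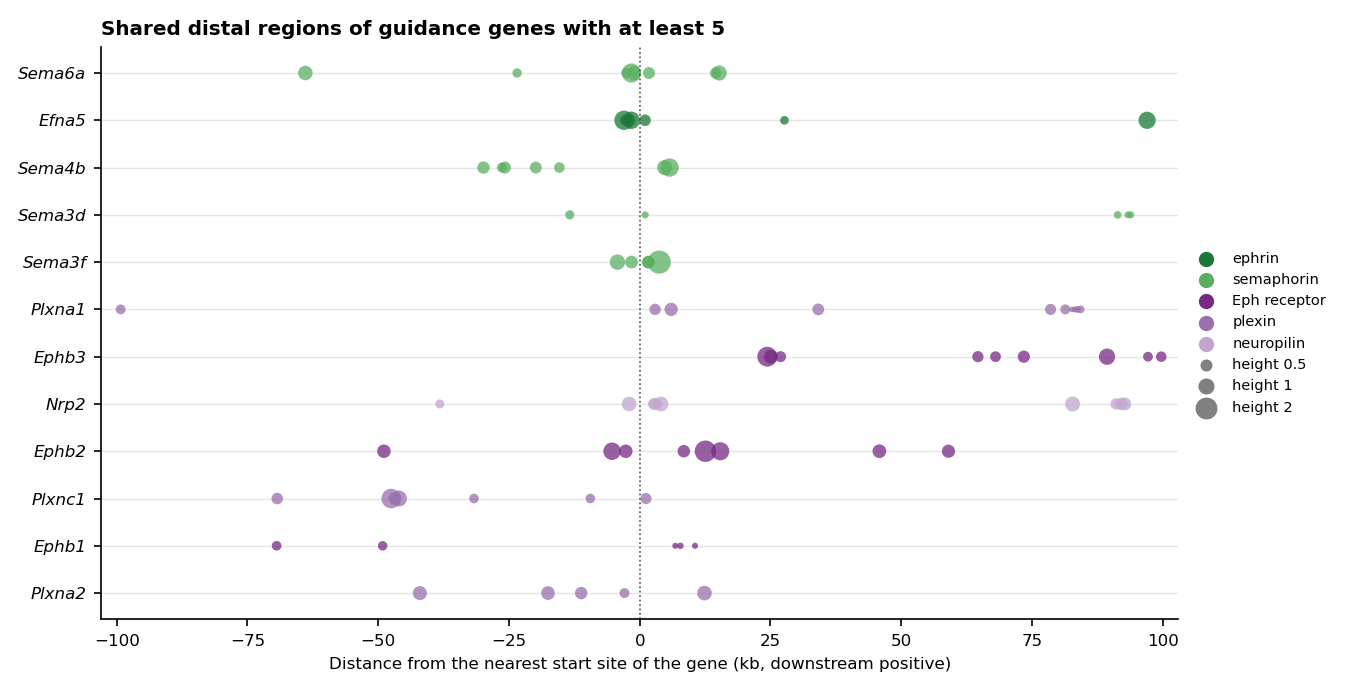
Distance of each shared distal region from the nearest start site of its gene (kb, downstream positive) for the genes with at least 5, with ligands above receptors, colour for the family and point area for the mean height of both replicates. Ephb3 had all 9 of its regions downstream, between 24.4 kb and 99.7 kb from its nearest start site, while those of Sema4b lay on both sides. Each of the 9 was nearer to a start site of a gene that is not protein-coding.

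Regions found in 1 replicate alone were unevenly spread. Ligands had 73 in replicate 1 and 37 in replicate 2, and receptors had 73 and 130. Of those 130 receptor regions, 90 (69.2%) lay by Ephb1 (47), Plxna2 (25) and Plxna1 (18), which left 40 by the other receptors. In replicate 1 Nrp2 had 23, Efnb2 15 and Ephb1 14. These regions were low, with a median height in replicate 1 of 0.282 at the guidance genes and 0.219 at all genes, and in replicate 2 of 0.217 at the guidance genes and 0.171 at all genes. Those of Ephb1 in replicate 2 had a median of 0.154. Counted within each replicate, the means per gene were 4.93 for ligands, 6.00 for receptors and 2.36 for all genes in replicate 1, and 3.71, 8.28 and 3.14 in replicate 2.

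Short motifs were counted on both strands, as letters in 200 bases and not as bound sites. A GC box was found before the 5′ end of 37 of the 53 guidance genes (69.8%), against 37.5% of all genes, and the higher GC content of these promoters was not taken out here. It was present in the closed promoters of Efna2 and Epha8 as well as in those of Ephb3, Epha7 and Efnb2. A CCAAT box (CCAAT) was found in 12 (22.6%) against 31.7% of all genes. In the distal windows the CTCF core was found in 30 of 141 (21.3%), in 16 of 66 for ligands and 14 of 75 for receptors, against 25.5% of all distal windows and 6.78% of all promoters. An E-box (CAGCTG) was found in 24 (17.0%) against 18.8%, and the AP-1 site (TGACTCA) in 7 (4.96%) against 5.76%.

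Other guidance genes and the partners inside the cell were read from listed members of each pathway. Of netrins, Slits and their receptors, 14 of 18 were open in both replicates (77.8%) against 62.3% of all genes, with a median height of 0.952. On the stricter list 9 of 18 were open (50%), below the 55% of all genes. The tallest were Unc5b, a netrin receptor of vessels, with 4.81 and 3.10, the ligand Slit2 with 2.55 and 1.90, and the receptor Neo1 with 2.31 and 1.75. Slit1 and Robo4 had no promoter peak, Ntn5 had one in replicate 2 alone and Unc5a in replicate 1 alone. Effectors of Eph receptors, plexins and neuropilins include kinases and regulators of small GTPases. Of these effectors 35 of 36 were open (97.2%), against 62.3% of all genes, and 32 on the stricter list (88.9%), against 55%. Their median height was 2.70, against 2.23 for all open promoters. The tallest were Dpysl2, which acts on microtubules, with 6.83 and 4.30, the cofilin kinase Limk1 with 6.74 and 4.18, and the adaptor Nck1 with 5.82 and 4.77. Crmp1, a relative of Dpysl2, had none. The median of the effectors was thus above that of the ligands (1.22) and receptors (1.38) and that of the netrin and Slit genes was below both. Median promoter GC was 63.1% for the effectors and 62.5% for the netrin and Slit genes. In the upper 2 quintiles of all genes by promoter GC, 90.8% were open, with a median height of 2.54. The median number of annotated TSSs was 6 for the effectors and 4 for the netrin and Slit genes, against 3. The part of GC content and TSS number was not tested.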

How the data were processed

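DNase-seq peaks, false discovery rates and footprints of each library were deposited on mm10. For the aligner, the callers and their thresholds, nothing is given in the sources used here. Peak height is the signal deposited by the authors, with its scale not stated, and each was tested for being a whole number of a library's smallest step (100% of peaks were, within 0.02 steps). The p-value column of the deposited rate lists holds a false discovery rate listed up to 0.05, and that of the deposited footprint lists holds 0.01 throughout, so footprints were not ranked. Read depth is not given, and steps put replicate 2 at 1.12 times replicate 1 if both were scaled alike. Precision is that of an exact Poisson 95% interval on a peak's steps, which covers counting error only.

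Computed here were, for each gene, the tallest peak within 500 bp of any TSS, and distal regions merged across replicates by an overlap of at least 1 bp. All peaks fell inside the lengths of the 21 reference chromosomes, and 61 of 61 RefSeq promoter sequences of the guidance genes (GRCm38, 47 symbols) were identical to the genome used. Space per gene is the sequence nearest to its TSSs within 100 kb. Motifs searched beside those named were TATAAA of core promoters, the TEAD site ACATTCC, the RUNX site TGTGGTT, the forkhead site TGTTTAC and the site AGATAA of erythroid-type zinc fingers, the CRE site TGACGTCA, the ETS site CCGGAAGT, the YY1 site AAGATGGC, and longer strings for NRF1, NFI and CTCF, with overlaps between motifs kept. Scripts were tested on simulated peaks.

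Values were given in full for the 8 genes with the tallest promoter peak, genes open in 1 replicate or none, the 6 with the most distal regions, the 8 tallest distal regions, 3 genes at each end of the replicate ratio, and the 3 tallest and the closed genes of each pathway list; every guidance gene could be named. The genes, lists and rules were chosen with earlier results of these data known. Python 3.11.15, numpy 2.4.6, pandas 2.3.3, scipy 1.17.1, matplotlib 3.10.9 and bedtools 2.31.1 were used. Alternatives were other promoter windows, the stricter list, the 5′ end alone, other distal limits and overlaps, and each replicate alone.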

Additional observations from a re-analysis of the deposited data

How the results depend on the processing

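The share of guidance genes with an open promoter was 75.5% on the stricter list and 81.1% at the 5′ end alone, and 90.6% to 92.5% without 1 replicate. For ligands these values were 75%, 78.6% and 89.3% to 96.4%, and for receptors 76.0%, 84.0% and 88.0% to 92.0%. The difference between ligands and receptors changed sign, from 1.29 percentage points as reported to -1 on the stricter list, -5.43 at the 5′ end alone and -2.71 without replicate 1 (range -2.71 to 8.43 without 1 replicate), and its direction is therefore not fixed by these data. Promoter windows of 250 or 1000 bp left these 4 values as they were. The median height of open ligand promoters was 1.5 on the stricter list against 1.22, with fewer genes counted, and that of receptors moved by less than the spread between replicates in each alternative. Without 1 replicate, medians ran from 1.09 to 1.43 for ligands and from 1.17 to 1.59 for receptors. Distal regions per gene fell to 1.18 for ligands on the stricter list, where receptors had 1.60 and all genes 0.654. Regions no longer had to be shared without 1 replicate, which gave 3.71 to 4.93 per ligand and 6.00 to 8.28 per receptor. Limits of 50 kb or 500 bp and an overlap of at least 50% of both peaks moved the distal means by less than the spread between replicates. That spread is of all regions of each replicate, shared or not (SD 0.859 for ligands and 1.61 for receptors, n = 2). It is therefore a wide measure for means of shared regions. Within 50 kb the shared means were 2.00 for ligands and 2.12 for receptors, against 2.36 and 3 within 100 kb. The centred ratio of replicates was -0.02 on the stricter list and -0.02 over genes whose tallest peaks overlapped, both added after the data were seen. No paired analysis was possible because there is a single group. Without read totals, a promoter with no listed peak can be called only below the authors' threshold, not closed in every cell.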
